A study of Homo sapiens with 4 samples.

Results

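Of the 440 antibodies read by RPPA in LN229 cells, 5 recognise a PKC isoform or a phospholipase C gamma, and these 5 are described here. They are all the antibodies whose names start with PKC or PLC-gamma. One of them, PKCa, detects total PKC alpha. The 4 others detect phosphorylated sites: T638 of PKC alpha together with T641 of PKC beta-II, S660 of PKC beta-II, S664 of PKC delta, and Y759 of PLC-gamma2. Total PKC beta, total PKC delta and total PLC-gamma were not among the antibodies analysed here, so that the total of the same protein was at hand for the PKC alpha site alone. The cells are LN229, a long-established line from a human glioblastoma. The treatment is salmon calcitonin (sCT), a peptide ligand of the calcitonin receptor CTR. RPPA prints cell lysates as small spots and stains each array with a single antibody. There were 2 untreated samples, labelled as 0 min, and 2 samples given sCT at 300 nM and taken at 60 min. Because no untreated sample is labelled as 60 min, an effect of sCT and any effect of the hour itself cannot be told apart. The submitters call the samples biological duplicates, and the sources do not say whether they came from separate cultures, so p-values measure only the spread between these samples.

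CTR couples to Gs, which raises cAMP, and also to Gq, which activates phospholipase C at the membrane. Phospholipase C splits the lipid PIP2 into inositol trisphosphate, which releases calcium from internal stores, and diacylglycerol, which recruits PKC. The conventional isoforms PKC alpha and PKC beta need both calcium and diacylglycerol, whereas PKC delta needs only diacylglycerol. Gq acts through the beta class of phospholipase C. The gamma class is instead recruited and phosphorylated by tyrosine kinases, and PLC-gamma2 is best known from blood cells. The C-terminal sites of PKC lie in the turn motif (T638 of alpha and T641 of beta-II) and in the hydrophobic motif (S660 of beta-II and S664 of delta). They are phosphorylated as the kinase matures and keep it stable, so they read the pool of primed kinase rather than its momentary activity. These motifs are much alike among isoforms, and an antibody named for a single isoform may detect others. Which isoforms each antibody detected in LN229 cells was not tested.

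The level of an antibody is a linear ratio on a scale on which the median of each sample over all antibodies is 1. It compares samples for that antibody, not antibodies with each other, and signal over background is not known. For the same reason the glioblastoma identity of the cells could not be checked against marker proteins. Levels were compared between groups on the log2 scale with limma, which shares an estimate of the spread across all 440 antibodies, and p-values were Benjamini-Hochberg adjusted over all 440. Only PKC-b-II_pS660 was lower after sCT at an adjusted p of 0.05. The 4 other antibodies of the family did not pass. The count of 1 of 5 stands beside 55.0% of all antibodies that passed in either direction, 33.6% lower and 21.4% higher. Of the 88 phosphorylated sites on the panel 58.0% passed, 47.7% lower and 10.2% higher, against 1 lower of the 4 sites of this family. The median log2 fold change of the 5 was 0.087, against 0.016 over the panel, and their median absolute change was 0.12 against 0.22. Over the 88 phosphorylated sites the median log2 fold change was -0.16 and the median absolute change was 0.26.

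PKC beta-II phosphorylated at S660 was the antibody of the family that moved the furthest. Its level was 1.29 and 1.43 in the untreated samples and 1.11 and 1.03 in the sCT-treated samples. Both sCT-treated samples were below both untreated samples, and the nearest samples of the groups were 0.22 log2 units apart, more than the 0.15 between the untreated samples and the 0.11 between the sCT-treated samples. The mean went from 1.36 ± 0.0980 (SD, n = 2) to 1.07 ± 0.0592 (SD, n = 2), a decrease of 21.4% on the scale of fold change. The log2 fold change was -0.35 (SE 0.074, limma adjusted p = 0.0154), with a 95% interval from -0.54 to -0.15. By the size of its change it ranked 162 of the 440 antibodies and 36 of the 88 antibodies to phosphorylated sites, and it was the 33rd lowest of these sites. Under a second call rule, an unadjusted p of 0.05 together with a log2 change of 0.58 in either direction, 0 of the 5 antibodies passed, against 21.6% of the panel. The call did not hold in limma without untreated replicate 2 (-0.27, adjusted p = 0.0648), with sCT replicate 1 left out (-0.40, adjusted p = 0.0541), or with sCT replicate 2 left out (-0.29, adjusted p = 0.0938). It was also lost with the replicate number as a block (adjusted p = 0.0542) and in an unequal-variance test of linear levels (adjusted p = 0.181). The direction was the same under every alternative that was run.

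PKC delta phosphorylated at S664, the matching hydrophobic motif site of that isoform, did not follow S660 of PKC beta-II. Its level was 0.971 and 0.975 in the untreated samples and 1.04 and 1.07 in the sCT-treated samples, so both treated samples were above both untreated ones. The log2 fold change was 0.12 (SE 0.045, limma adjusted p = 0.0852), with a 95% interval from -0.0029 to 0.24. The difference was therefore not past the threshold, and a decrease as large as that of S660 lies outside its interval. With eBayes run with trend and robust estimation it passed, with the same log2 fold change and an adjusted p of 0.0457. The PKC delta value turned to -0.11 when the samples were centred on loading controls (adjusted p = 0.0788).

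The turn motif antibody gave the smallest difference of the family. PKC alpha phosphorylated at T638, read together with PKC beta-II at T641, was at 1.039 and 1.010 in untreated cells and at 1.015 and 1.066 after sCT. The groups overlapped, and the log2 fold change was 0.022 (SE 0.050, limma adjusted p = 0.724, 95% interval from -0.11 to 0.15). It became -0.014 without sCT replicate 2 (limma adjusted p = 0.862). This antibody and the one to S660 both name PKC beta-II, but they differed in what they showed. Within each sample, the log2 level of pS660 minus that of pT638/T641 was 0.32 and 0.50 in untreated cells and 0.13 and -0.052 after sCT. The 2 groups of differences did not overlap, and their means were -0.37 apart. An exact permutation test of 2 samples against 2 gives p = 0.333 (two-sided), which is the smallest it can give. This contrast between S660 and another antibody, and the contrasts of S660 with PKCa, PKC delta and PLC-gamma2, were chosen after the values were seen.

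Total PKC alpha, a conventional isoform present in most cells, was not past the threshold. PKCa was at 0.880 and 0.987 in untreated cells and at 1.001 and 1.077 after sCT. The treated samples were above the untreated ones, yet the gap between the nearest samples was 0.020 log2 units, much less than the 0.17 between the untreated samples. The log2 fold change was 0.16 (SE 0.077, limma adjusted p = 0.144), with a 95% interval from -0.048 to 0.36. It ranged from 0.073 without untreated replicate 1 to 0.24 without untreated replicate 2, and neither value passed. Set against this total within each sample, the turn motif site was at 0.24 and 0.034 log2 units in untreated cells and at 0.020 and -0.015 after sCT. The site antibody also names PKC beta-II, whereas the total is of PKC alpha alone. The difference between groups was -0.13 (exact permutation test, two-sided, p = 0.333), and it fell between -0.24 (without untreated replicate 2) and -0.031 (without untreated replicate 1) with a sample left out. S660 of PKC beta-II set against total PKC alpha, which is another isoform, went from 0.56 and 0.54 to 0.15 and -0.066.

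PLC-gamma2 phosphorylated at Y759, a tyrosine in the linker next to its SH2 and SH3 domains, stood close to its untreated level. It was at 0.993 and 1.04 in untreated cells and at 1.08 in both treated samples. The samples of the groups did not overlap, with a gap of 0.051 log2 units against 0.066 between the untreated samples. The log2 fold change was 0.087 (SE 0.047, limma adjusted p = 0.171), with a 95% interval from -0.038 to 0.21. It ranged from 0.054 without untreated replicate 1 to 0.12 without untreated replicate 2, and neither value passed. In all, the groups did not overlap for 4 of the 5 antibodies, against 85.9% of the panel. Of these 4, PKC delta, PKCa and PLC-gamma2 were higher in 2 of 2 treated samples, with the scaling as deposited.

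**Figure D1:**
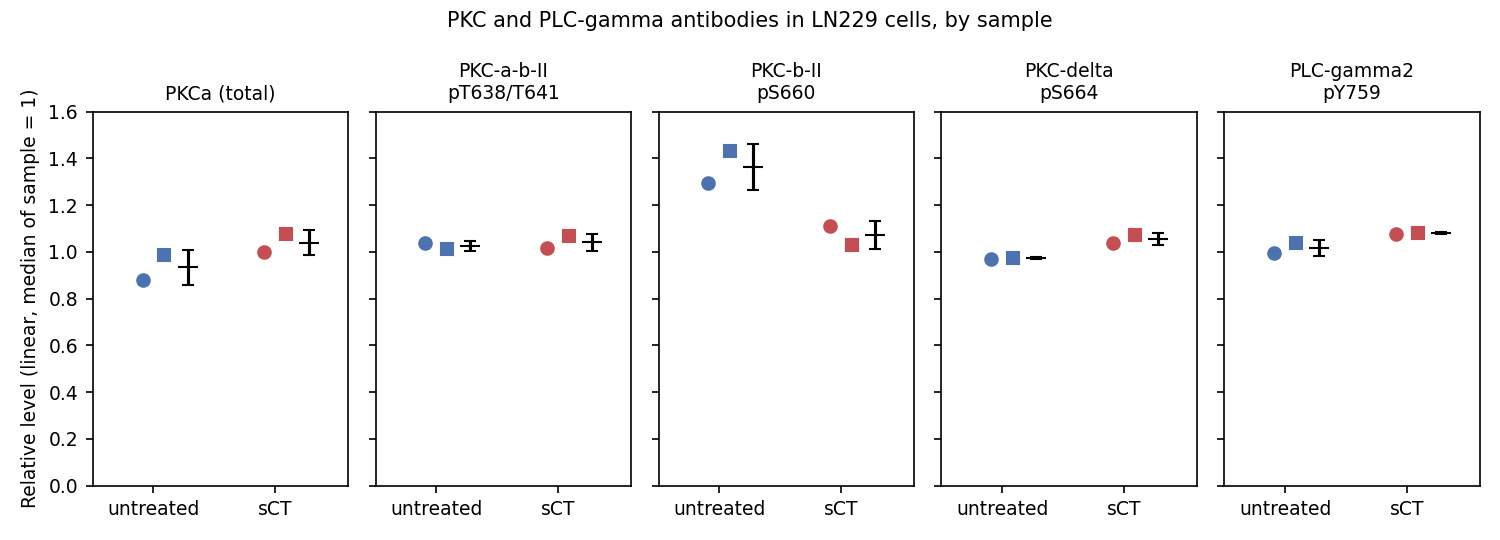
Relative level (linear, with the median of each sample at 1) of the 5 PKC and PLC-gamma antibodies in untreated (blue) and sCT-treated (red) LN229 samples. Circles are replicate 1, squares are replicate 2, and the black marks show mean and SD (n = 2). Only PKC-b-II pS660 falls, from 1.29 and 1.43 to 1.11 and 1.03, while the others lie between 0.880 and 1.08 in all samples.

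**Figure D2:**
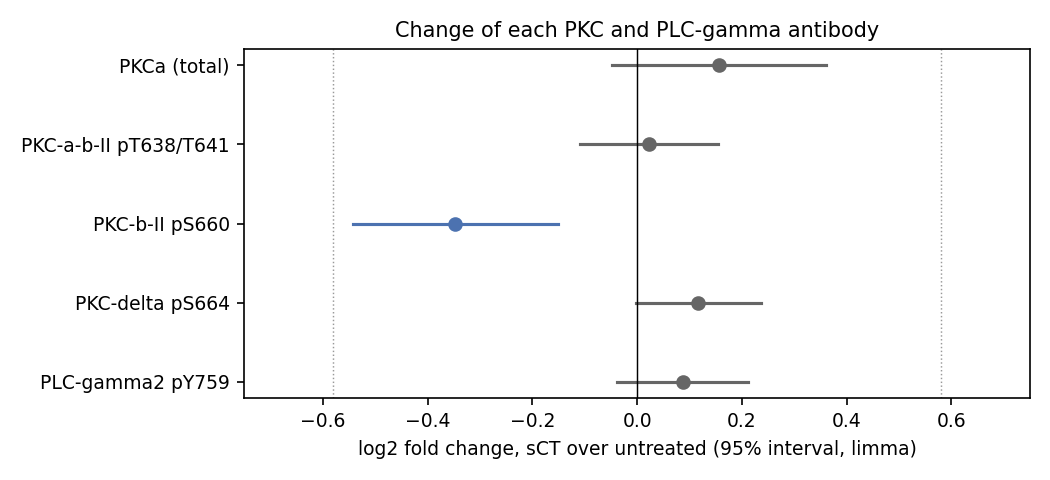
Change of each antibody after sCT as log2 fold change (points) with its 95% interval (lines) from limma. Blue marks an adjusted p under 0.05, grey the others, and dotted lines mark 0.58 in either direction. The interval of PKC-b-II pS660, from -0.54 to -0.15, is the only one that does not reach 0.

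The direction of the 4 antibodies that did not pass was upward as deposited and under median centring or quantile normalization. Among the scalings, it turned only with centring on loading controls. Of 5 loading control antibodies, 4 were higher after sCT, beside 21.4% of the panel, with log2 fold changes up to 0.57 for GAPDH and 0.41 for HSP70, and vinculin was at 0.039 (limma adjusted p = 0.557). With a sample left out, 1 or 2 of the loading controls passed as higher. Centring each sample on these antibodies, each taken relative to its own mean, shifted the panel median by -0.22 log2 units. On that scale 60.0% of the panel passed, 54.5% lower and 5.45% higher, and 3 of the 5 PKC and PLC-gamma antibodies passed as lower. PKC-b-II_pS660 was at -0.57 (adjusted p = 0.00339), PKC-a-b-II_pT638_T641 at -0.20 (adjusted p = 0.0215), PLC-gamma2_pY759 at -0.14 (adjusted p = 0.0490), PKC delta at -0.11 and PKCa at -0.067 (adjusted p = 0.456). Since every antibody moved by the same amount, the order of the log2 fold changes was not changed by this centring. Under quantile normalization S660 was at -0.26 (adjusted p = 0.0439) and total PKCa at 0.29 (adjusted p = 0.228), and the other 3 stayed between 0.0068 and 0.12. Whether the loading of the lysates had a part in these values was not tested.

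**Figure D3:**
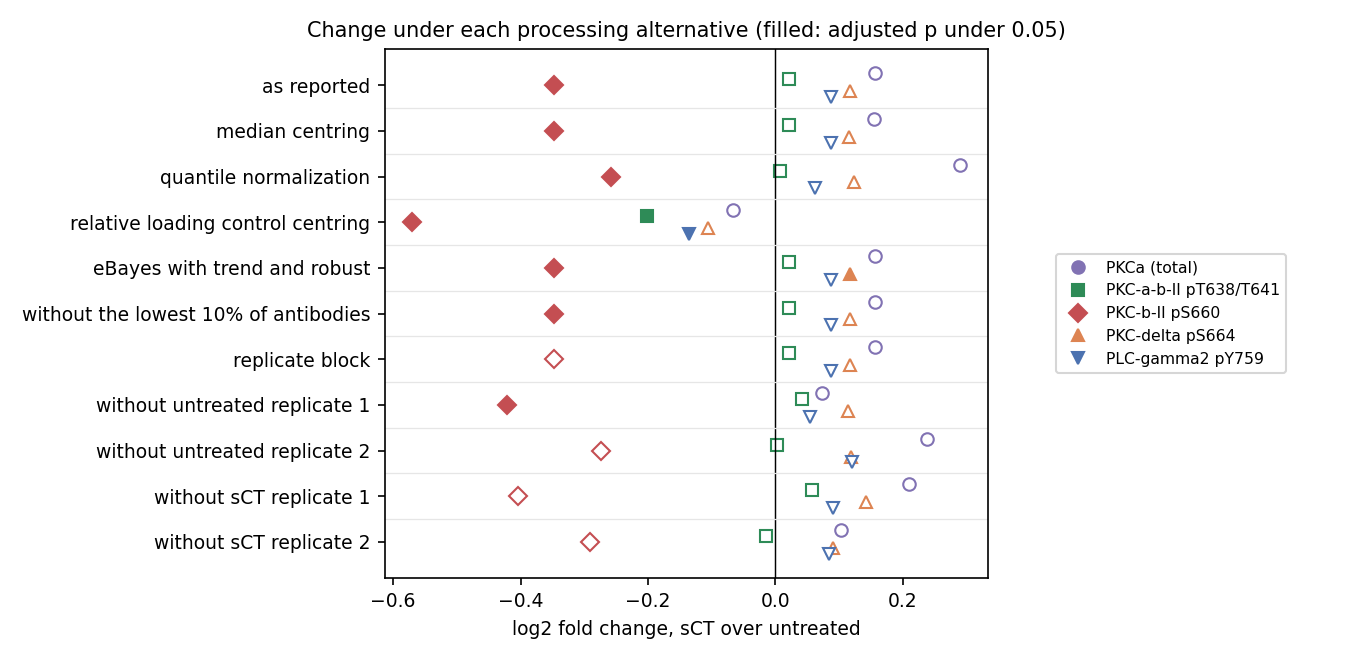
Log2 fold change after sCT of the 5 antibodies as reported and under each alternative on the log2 scale, with filled symbols for an adjusted p under 0.05 in limma. PKC-b-II pS660 lies between -0.57 and -0.26 throughout, while the 4 others fall below 0 with relative loading control centring.

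PKC depends on other kinases and phosphatases for its C-terminal sites, and most of those on the panel were lower after sCT. PDK1 phosphorylates the activation loop of PKC, mTOR complex 2 with its subunit Rictor acts on the turn and hydrophobic motifs, and the phosphatase PHLPP removes the phosphate of the hydrophobic motif. Of 7 antibodies to these proteins, limma called 6 lower and 0 higher, beside the 55.0% called over the panel (33.6% lower and 21.4% higher). The median log2 fold change of the 7 was -0.53. The counts were 6 lower under quantile normalization and 7 lower with relative loading control centring. PHLPP fell the furthest, from 1.49 and 1.33 to 0.390 and 0.415, which is -1.81 on the log2 scale (SE 0.075, adjusted p = 0.000146). Total Rictor went from 0.975 and 1.003 to 0.597 and 0.616, a log2 change of -0.71 (adjusted p = 0.000419). Total mTOR, the kinase of the complex, went from 1.066 and 1.058 to 0.732 and 0.739, a log2 change of -0.53 (adjusted p = 0.000702). Rictor at T1135, a site that S6 kinase can phosphorylate, was at -0.29 (adjusted p = 0.00689). The call of the T1135 site was lost when sCT replicate 1 (adjusted p = 0.0578) or the other sCT sample (adjusted p = 0.0503) was left out. PDK1 at S241, its own activation loop site, went from 1.08 and 1.12 to 0.713 and 0.769, a log2 change of -0.57 (adjusted p = 0.00150). Total PDK1 was at -0.100 (adjusted p = 0.152) and passed only with relative loading control centring, at -0.32. Rictor and mTOR, of the complex that acts on the hydrophobic motif, and PHLPP, which removes its phosphate, were thus all lower. The log2 changes of PHLPP, total Rictor, total mTOR and PDK1 at S241 were larger in size than that of S660. mTOR at S2448 was close to S660, at -0.37, and Rictor at T1135 changed less. Differences between antibodies were not tested.

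PKC belongs to the AGC kinases, and its relatives on the panel carry the same kind of motif. Of 14 antibodies to other AGC kinases, 6 were lower and 2 higher in limma, or 57.1% changed against 55.0% of the panel, with a median of -0.16. Relative loading control centring gave 10 lower and 0 higher. The count of 8 fell to 4 without sCT replicate 1 and to 4 without sCT replicate 2. At the hydrophobic motif, Akt_pS473 went from 1.37 and 1.67 to 0.531 and 0.559, which is -1.47 on the log2 scale (SE 0.11, adjusted p = 0.000523). An antibody specific for Akt1 at this site gave -0.67 (adjusted p = 0.0359). Its call did not hold with sCT replicate 1 left out (adjusted p = 0.176), with sCT replicate 2 left out (adjusted p = 0.114), under quantile normalization (adjusted p = 0.0554), or on linear levels in limma (adjusted p = 0.0603). Without untreated replicate 2 the value was -0.41 (adjusted p = 0.0489). Akt2 at S474 was at -0.15 (adjusted p = 0.0693), and at -0.38 and past the threshold with relative loading control centring. With the log2 fold change as it was, it also passed with trend and robust estimation (adjusted p = 0.0421) and with the replicate block (adjusted p = 0.0426). The hydrophobic motif of S6 kinase, p70-S6K_pT389, which was picked after its values were seen, was at 0.053 (adjusted p = 0.330) and at -0.17 with relative loading control centring. The hydrophobic motif sites of this kinase family therefore covered a wide range, with S660 of PKC beta-II between Akt_pS473 and S664 of PKC delta. At the activation loop, Akt_pT308 was lower as well, at -1.04 (adjusted p = 0.000702). Among the totals, the antibody named Akt, with no isoform in its name, was at 0.029 (limma adjusted p = 0.590), and its groups overlapped. Akt2 was at -0.81 (adjusted p = 0.000486). Akt1 was at 0.19 (adjusted p = 0.0223) but at -0.037 with relative loading control centring, and its call was lost when untreated replicate 2, sCT replicate 1 or sCT replicate 2 was left out. PKA-a, an antibody named for PKA, the kinase that answers to cAMP on the Gs arm of CTR, was at -0.33 (limma adjusted p = 0.00603). Its name does not say whether it detects a catalytic or a regulatory subunit. SGK3 was the highest of the list at 0.24 (limma adjusted p = 0.0140). The SGK3 call was lost with relative loading control centring (0.020) or without untreated replicate 1, sCT replicate 1 or sCT replicate 2.

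PLC-gamma is recruited by tyrosine kinases and adaptors. Of 23 antibodies to these, 7 were lower and 5 higher in limma and 11 did not pass, so that 52.2% changed against 55.0% of the panel, with a median log2 fold change of 0.013. Relative loading control centring gave 14 lower and 3 higher. The adaptor Gab2 was the lowest, at -1.58 (adjusted p = 0.000351), followed by HER2 at -1.53 (adjusted p = 0.000340). Both were among the lowest 10% of antibodies by mean level. With that 10% removed, 18 antibodies of the list remained, 3 lower and 5 higher. The insulin receptor beta chain was the highest, at 0.59 (adjusted p = 0.000603), followed by SRC at its inhibitory site Y527, at 0.58 (adjusted p = 0.00589). The call of Y527 was lost without sCT replicate 2 (adjusted p = 0.0510).

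Among lipid kinases and phosphatases, antibodies to 3 PI3K subunits and to the lipid phosphatase INPP4b were read. Of these, 1 was lower and 3 higher in limma, beside 33.6% lower and 21.4% higher over the panel. How they bear on the PIP2 that phospholipase C splits was not tested. Relative loading control centring gave 1 lower and 1 higher, and with any one sample left out 1 was lower and 1 higher as well. INPP4b went from 1.20 and 1.19 to 1.71 and 1.74, a log2 change of 0.53 (adjusted p = 0.000729). The catalytic subunit PI3K-p110-a was the lower one, at -0.43 (adjusted p = 0.00174). Further downstream, 25 antibodies to proteins that PKC or calcium can act on gave 8 lower and 7 higher, with a median of 0.097, and the 15 changed stand beside 55.0% of the panel. They gave 10 lower and 2 higher with relative loading control centring, and 5 lower and 10 higher under quantile normalization, with a median of 0.23. Without untreated replicate 2 they gave 6 lower and 4 higher, and without sCT replicate 1 they gave 7 lower and 2 higher. Their changes ran from -2.04 for CREB phosphorylated at S133 to 1.69 for COX2. With the lowest 10% of antibodies by mean level removed, this CREB site among them, 18 of the list remained, 3 lower and 6 higher.

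**Figure D4:**
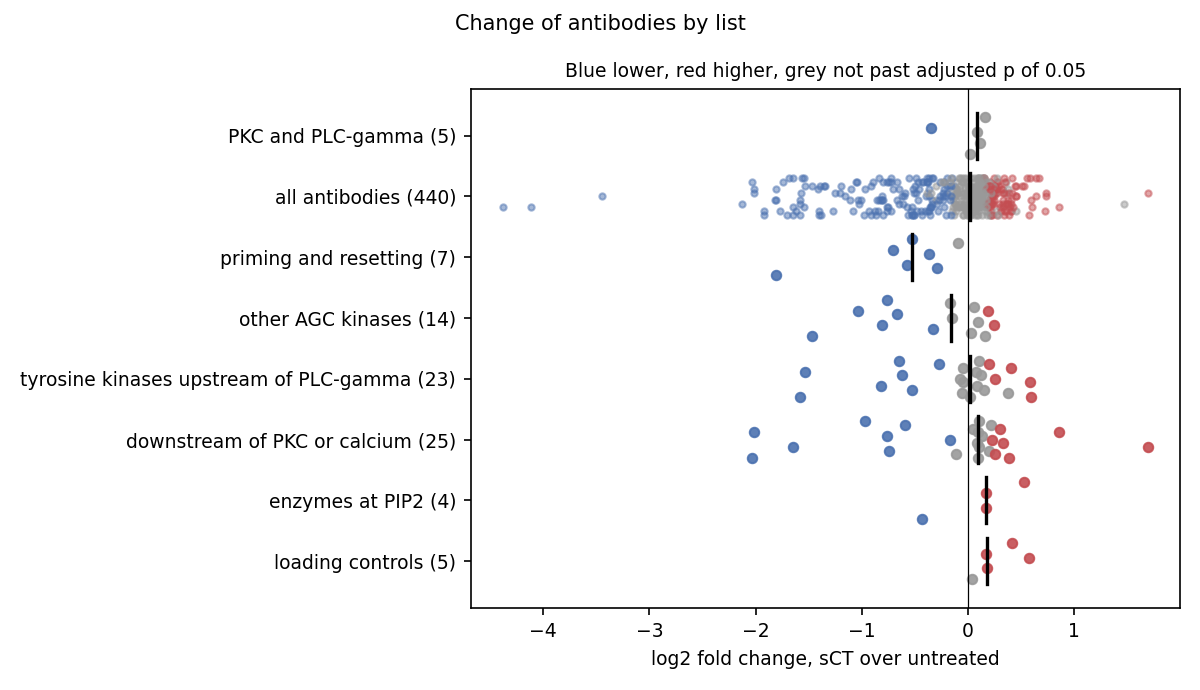
Log2 fold change after sCT for the PKC and PLC-gamma antibodies, for all 440 antibodies and for the lists of related proteins, with 1 point per antibody, vertical marks at the medians, and the number of antibodies in parentheses. The priming and resetting list has the lowest median of the lists shown, at -0.53, while the PKC and PLC-gamma antibodies have a median of 0.087.

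The antibodies whose pattern over the 4 samples was closest to each member were found by the root mean square difference of log2 levels taken relative to untreated cells. For PKC-b-II_pS660 these were Ambra1 at S52 (0.042 log2 units), mTOR at S2448 (0.044) and PKA-a (0.056), with log2 fold changes of -0.35, -0.37 and -0.33. mTOR_pS2448 is also on the list of proteins that prime PKC. For PKC-delta_pS664 the closest were c-Kit, N-Ras and ATM at S1981, at 0.011, 0.012 and 0.014 log2 units. PKCa was closest to eIF4E (0.027), ACC1 (0.031) and cleaved caspase-3 (0.037). PLC-gamma2_pY759 was closest to NRF2 (0.0056), IL-6 (0.0088) and HSP27 (0.014), and PKC-a-b-II_pT638_T641 to vinculin (0.018), Stathmin-1 (0.019) and ERCC1 (0.026). With 4 samples such a likeness is a description only.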

How the data were processed

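Protein levels were measured by RPPA in 2 untreated and 2 sCT-treated LN229 samples. The methods describe dilution series of each lysate spotted onto nitrocellulose, with antibody binding read by a DAB colour reaction. The authors deposited linear ratios, 1 per antibody and sample, and the steps from spot intensity to ratio are not given in the sources used here. Depth does not apply to arrays, and the number of arrays limits the precision. All levels were above 0, so log2 values were taken with no pseudocount. Groups were compared in R 4.3.3 using the limma package, version 3.58.1, by lmFit and eBayes without covariates (residual degrees of freedom 2, prior degrees of freedom 2.59). All p-values are two-sided. The steps were tested on simulated data. Single contrasts within samples used exact permutation tests.

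The members, the lists and the rule for named antibodies were chosen with earlier results of these data known. The rule took all PKC and PLC-gamma antibodies, the lowest and highest called antibodies of each list, rows that bear directly on a member (PDK1, Rictor, mTOR, Akt, PKA), and the 3 nearest antibodies of each member. ERK antibodies other than ERK1/2 and modified tubulin were not taken into the lists. Alternatives were linear levels, median centring, quantile normalization, relative loading control centring (GAPDH, b-Actin, Vinculin, HSP60, HSP70), eBayes set to trend and robust, a filter on the lowest 10% of antibodies, leaving out each sample, the replicate number as a block, and an unequal-variance test on linear levels. 1 antibody was left out of the lists and is not reported here, and the other antibodies of the lists that the rule does not name are given by their counts. No protein sequences were used here.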

Additional observations from a re-analysis of the deposited data

How the results depend on the processing

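The number of PKC and PLC-gamma antibodies past an adjusted p of 0.05 was 1. It was 3 with relative loading control centring (264 over the panel, 240 lower and 24 higher), 2 with trend and robust estimation, 0 with an unequal-variance test of linear levels, and between 0 and 1 with each sample left out. Over the panel the count was 242 (148 lower and 94 higher), between 148 and 214 with a sample left out (148 without sCT replicate 1, 158 without sCT replicate 2), and 1 with that unequal-variance test (1 lower). With a sample left out, the spread of the lone sample is taken from the opposite group. For PKC-b-II_pS660 the unequal-variance test gave a linear difference of -0.292 (adjusted p = 0.181), and the log2 fold change was between -0.42 and -0.27 with a sample left out. PKC-delta_pS664 passed with trend and robust estimation, at 0.12. With relative loading control centring the direction turned for PKC-a-b-II_pT638_T641 (-0.20), PKC-delta_pS664 (-0.11), PKCa (-0.067), PLC-gamma2_pY759 (-0.14), Akt1 (-0.037) and p70-S6K_pT389 (-0.17), since this scaling moved every antibody by the same amount. PKC-a-b-II_pT638_T641 was between -0.014 and 0.058 with a sample left out. Signal over background is unknown, which limits how a small change can be read.

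Same-numbered samples deviated together (r = 0.59 across antibodies), but with 2 pairs the numbers were not taken to pair the samples. With the replicate number as a block, 0 PKC and PLC-gamma antibodies passed, and PKC-b-II_pS660 had the same log2 fold change of -0.35 with an adjusted p of 0.0542.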
